A study of Homo sapiens with 6 samples.

Results

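The DUSP, SPRY and SPRED genes that restrain MAPK signalling were followed in SU-DHL-2 cells cultured with or without IL-17A. The 10 genes were chosen by name, with earlier results of these data known, and the rule itself used no measured value: DUSP1, DUSP2, DUSP4, DUSP5, DUSP6, DUSP10, SPRY1, SPRY2, SPRED1 and SPRED2. They were 10 of the 19740 named genes on the array, and each was carried by 1 probe, 10 of 34127 probes. SU-DHL-2 is an established human diffuse large B-cell lymphoma line. Both groups were grown from the same line in the same medium, and 3 samples received IL-17A at 200 pg/ml for 72 h while 3 control samples received none. IL-17A is the main cytokine secreted by T helper 17 cells, and the question was which transcripts differed in lymphoma cells after exposure to it. Total RNA of each sample was hybridised to a 1-colour Agilent array, and a value is the log2 of the quantile normalised fluorescence of a probe.

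MAP kinases (ERK, JNK and p38) are switched on by phosphorylation, and the dual-specificity phosphatases encoded by DUSP genes switch them off by removing those phosphates. Sprouty and SPRED proteins act higher in the cascade, where they limit the passage of receptor signals through RAS and RAF to ERK. Many of these inhibitors are themselves transcribed in response to MAPK activity, so their transcripts are widely read as a record of feedback on the pathway, in B cells as elsewhere.

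Between 23570 and 24077 probes were well above background per array, and no spot was saturated. The test took in the 23945 probes that passed this mark on 3 arrays or more, and with so few arrays their number sets the precision. All 10 B cell markers, including PAX5 and CD79A, and all 4 markers of activated B cells or plasmablasts, including IRF4 and PRDM1, were well above background on all 6 arrays. The summed linear signal of the first list was 50059 to 51068 in the controls and 51954 to 53536 with IL-17A, and that of the second 2961 to 3043 and 3451 to 3657, so the IL-17A arrays lay above the controls in both. Of 7 T and NK cell markers, 6 were well above background on all 6 arrays, CD3D, CD3E and CD3G among them, and NCAM1 was so on none. The summed linear signal of that list was 213 to 230 in the controls and 223 to 235 with IL-17A, with overlapping ranges. Of the 4 monocyte markers on the array only CD14 was well above background on all 6 arrays, and CSF1R, FCGR3A and S100A8 were so on none. The summed signal of that list was 38.1 to 44.1 in the controls and 37.99 to 39.8 with IL-17A. Of 7 mesenchymal markers only COL1A1 was well above background on all 6 arrays, and COL1A2, COL3A1, DCN, LUM and THY1 were so on none. The summed signal of that list was 21.9 to 31.2 in the controls and 25.0 to 31.3 with IL-17A. The part of these transcripts in the results was not tested. The 6 arrays fell into 2 scans by their scan start times. IL-17A replicate 1 shared its scan with every control array, and the remaining IL-17A arrays formed the second. Each difference is also given with the scan as a block where it matters. Because the second scan held no control, the difference with that block is IL-17A replicate 1 minus the mean of the 3 controls.

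Of the 10 feedback genes, 8 were tested, and DUSP10 alone passed an adjusted p of 0.05, being 1.31-fold higher with IL-17A (limma, Benjamini-Hochberg adjusted over all tested probes). DUSP4 was 1.24-fold lower and SPRY1 1.14-fold higher, each with an unadjusted p under 0.05 that did not pass adjustment. DUSP1, DUSP2, DUSP5, DUSP6 and SPRED2 had intervals that held 0. SPRY2 and SPRED1 were not well above background on any of the 6 arrays. The array reads RNA of a whole culture, in which fewer cells carrying a transcript and less of it per cell cannot be told apart.

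**Figure D1:**
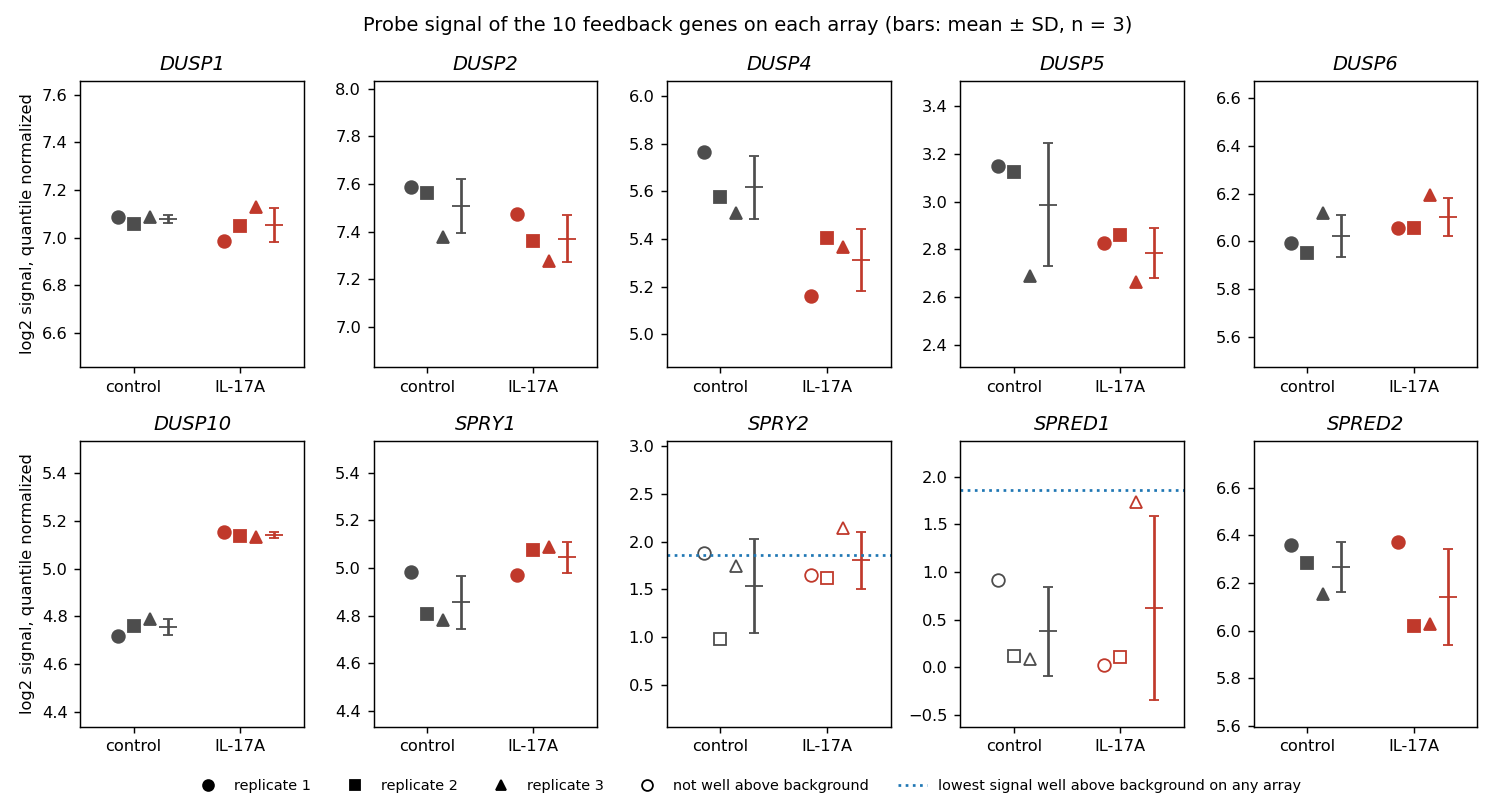
Normalised log2 signal of each of the 10 feedback genes on the 6 arrays, with 1 panel per gene, the groups on the x axis, a symbol per replicate and a bar at the group mean with its SD (n = 3). Open symbols were not well above background and the dotted line marks the lowest signal well above background on any array; the vertical span differs between panels (1.2 or 3 log2 units), so heights are not to be compared between genes. The DUSP10 points lie at 5.13 to 5.16 with IL-17A and 4.72 to 4.79 in the controls, and the DUSP4 points also separate, in the opposite direction.

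The share of members called was read against all tested probes. By limma, 1 of the 8 tested members had an adjusted p under 0.05, against 7.59% of all tested probes; DUSP10 was the only one among higher calls, which took in 4.43% of probes, and none was among lower calls, which took in 3.17%. An unadjusted p under 0.05 was reached by 3 of 8 members (DUSP4, DUSP10 and SPRY1) and by 31.3% of all tested probes. The groups did not overlap for 2 of 8 members (DUSP4 and DUSP10) and for 38.9% of all tested probes. At a 1.5-fold change or more with p under 0.05 before adjustment, both set in the study's methods, which also name a false discovery rate of 0.05, limma called 0 members and 2.18% of all tested probes (522 probes, 241 higher and 281 lower; 150 higher and 422 lower when arrays were scaled to their 75th percentile instead). The unmoderated test of the study's methods also gave 0 members past both thresholds, with 2 at an unadjusted p under 0.05. Each of the limma counts was near what the array-wide share gives for 8 genes.

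The size of the differences was also read from their intervals. All 8 tested members had 95% intervals inside a 1.5-fold change in either direction (0.58 on the log2 scale). With the scan as a block 6 of 8 did, the exceptions being DUSP4 (-0.75 to -0.16) and DUSP5 (-0.72 to 0.41). The share of all tested probes with intervals inside a 1.5-fold change was not counted, so this is not read as a trait of the members. The 8 differences ran from -0.31 to 0.39, 3 of them positive and 5 negative, with a median of -0.074 against 0.0070 over all tested probes. Their median absolute difference was 0.16 against 0.12, and their median standard error 0.075 against 0.067. The estimates thus had both signs within the family, and 5 of the 8 intervals held 0. An interval that leaves out 0 has an unadjusted p under 0.05, which 31.3% of all tested probes reached.

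**Figure D2:**
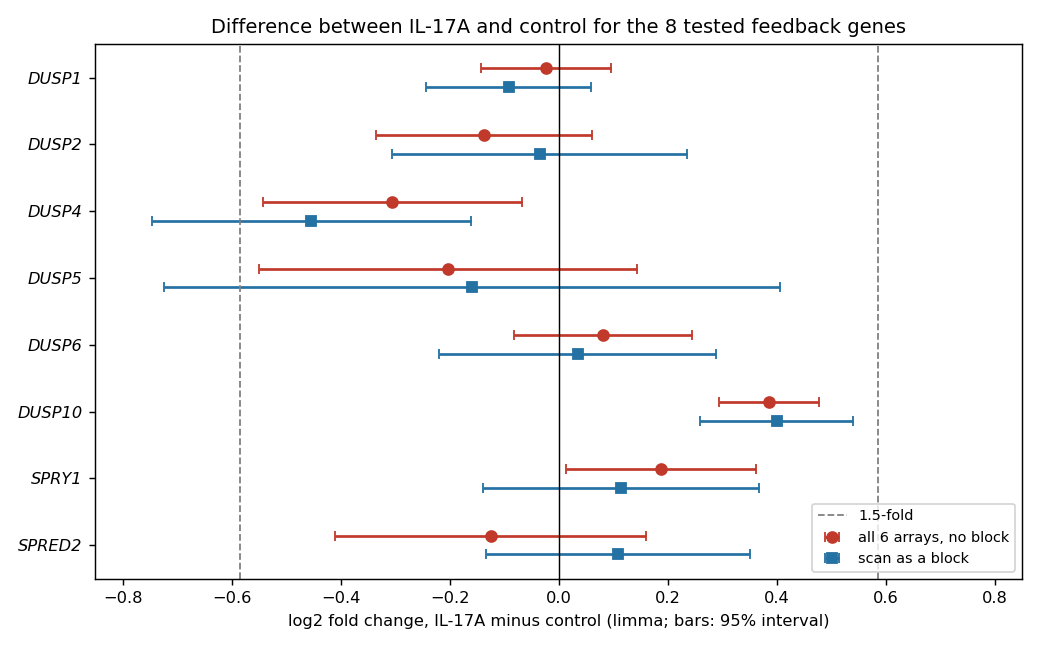
Log2 difference, IL-17A minus control, of the 8 tested feedback genes with the 95% interval from limma, without a block (circles) and with the scan as a block (squares); dashed lines mark a 1.5-fold change. DUSP10 lies at 0.39 (0.29 to 0.48) and 0.40 (0.26 to 0.54), DUSP4 at -0.31 and -0.45, and SPRED2 changes sign, from -0.12 to 0.11.

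DUSP10 encodes a phosphatase that acts on JNK and p38 and little on ERK. Its signal was 5.16, 5.14 and 5.13 on the IL-17A arrays and 4.72, 4.76 and 4.79 on the control arrays. Every IL-17A array was above every control array, with a gap wider than the spread within either group (5.14 ± 0.012 against 4.76 ± 0.034, SD, n = 3). The difference was 0.39 with a standard error of 0.037, a 1.31-fold increase (95% interval 1.23 to 1.39; limma adjusted p = 0.0269). It stood at rank 57 of the 23945 probes by p. With the scan as a block the difference was 0.40 (95% interval 0.26 to 0.54) and the adjusted p was 0.0859. The call was also lost when 1 array was left out: adjusted p was 0.0535, 0.0781 and 0.119 without IL-17A replicates 1, 2 and 3, and 0.0880 and 0.135 without control replicates 1 and 2, while without control replicate 3 it was 0.0477. Of 18 fits in all, 9 gave an adjusted p under 0.05, and in all 18 the difference was positive with an unadjusted p of at most 0.00518. Because the groups did not overlap, fits that kept the same normalised values could not turn that sign. The difference was 0.35 to 0.40 in every setting but 1: after normexp background correction, which adds an offset to every signal, it was 0.11 (limma adjusted p = 0.0548).

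**Figure D3:**
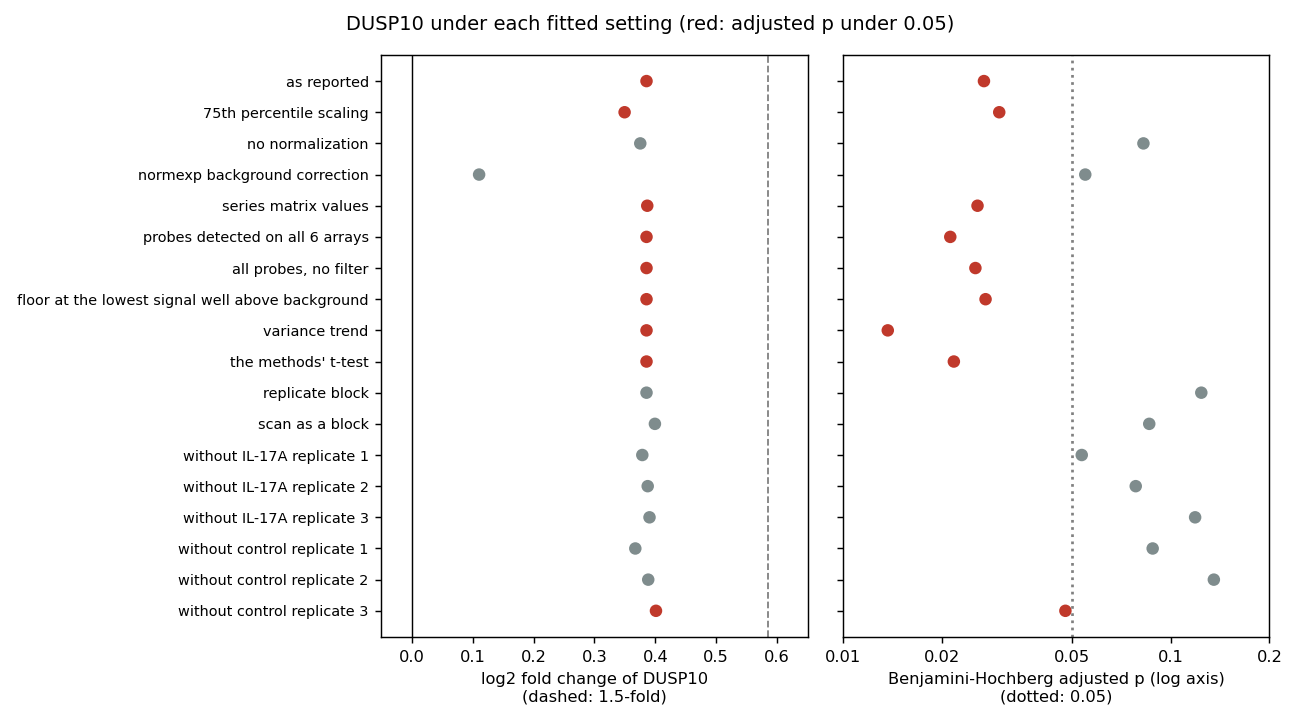
Log2 difference of DUSP10, IL-17A minus control, under the fit as reported and each alternative setting, in the left panel, and its Benjamini-Hochberg adjusted p on a log axis in the right panel; red points have an adjusted p under 0.05. The differences lie between 0.35 and 0.40 except after normexp background correction (0.11), and the call is lost in 9 of 18 fits.

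The upstream sequences of DUSP10 are shown because it was the member that passed the test. RefSeq on GRCh38.p14 gives it 2 start sites on the reverse strand of chromosome 1, and the array does not tell which was used. Each stretch runs from 250 bases before the start to 10 bases after it, 5′ to 3′, and capitals mark the short CRE, TGACG, read on either strand, the shorter form of the cyclic AMP response element through which CREB and ATF factors bind.
DUSP10 window 1, chr1:221742080-221742339 (reverse strand): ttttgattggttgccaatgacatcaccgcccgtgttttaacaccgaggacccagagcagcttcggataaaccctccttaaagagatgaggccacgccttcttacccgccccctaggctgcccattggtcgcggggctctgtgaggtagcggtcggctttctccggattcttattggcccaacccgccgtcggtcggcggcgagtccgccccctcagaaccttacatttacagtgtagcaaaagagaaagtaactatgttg
DUSP10 window 2, chr1:221736891-221737150 (reverse strand): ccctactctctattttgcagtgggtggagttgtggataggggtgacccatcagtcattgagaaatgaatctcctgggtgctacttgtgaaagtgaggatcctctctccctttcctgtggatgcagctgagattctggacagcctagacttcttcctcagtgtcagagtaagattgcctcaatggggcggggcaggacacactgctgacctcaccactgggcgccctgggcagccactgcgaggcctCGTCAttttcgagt
The first window has no short CRE, and the second has 1 that spans the start, at -4 to 1. The short CRE was present in 24.6% of 35114 RefSeq promoter windows of 300 bases (250 before and 50 after the start).

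Among 10069 named genes with a mean log2 signal of at least 6, the signals most like those of DUSP10 over the 6 arrays were those of LRIG1, INSR and N4BP2L1, each with a Pearson r of 0.999. LRIG1 is an inhibitor of receptor tyrosine kinases and INSR encodes the insulin receptor. Their differences were 0.10 for LRIG1, 0.18 for INSR and 0.49 for N4BP2L1. The 6 points share the split into groups, and the likeness is a description.

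DUSP4 encodes a nuclear phosphatase of ERK, JNK and p38. Its signal was 5.16, 5.41 and 5.37 with IL-17A and 5.76, 5.58 and 5.51 in the controls. The groups did not overlap, although the highest IL-17A array and the lowest control array lay close together. The difference was -0.31 ± 0.10 (standard error; 95% interval -0.54 to -0.068), with a limma adjusted p of 0.0996. IL-17A replicate 1 had the lowest value, and within its scan the difference from the 3 controls was -0.45. With the scan as a block DUSP4 gave an adjusted p of 0.126 in limma. It was negative in every setting run, from -0.45 to -0.10, and its adjusted p was under 0.05 in none of 18 fits (0.0647 to 0.253), with an unadjusted p under 0.05 in 14. Without overlap between the groups, fits that kept the same normalised values could not turn its sign either.

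DUSP1, DUSP2 and DUSP5 encode nuclear phosphatases that are induced early after stimulation; DUSP5 is selective for ERK. DUSP1 signal was 6.99, 7.05 and 7.13 with IL-17A and 7.09, 7.06 and 7.09 in the controls. The control arrays lay within the range of the IL-17A arrays. Its probe was printed on 10 spots per array, with an SD between spots of 0.051 to 0.079 log2 units before normalisation, and it had the narrowest bound after DUSP10: a difference of -0.023 (95% interval -0.14 to 0.096, limma adjusted p = 0.769).

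DUSP1 is the classical CREB target of the family, and its upstream stretch is shown beside those of DUSP10 for comparison. It lies on the reverse strand of chromosome 5, with matches to the full and short CRE in capitals.
DUSP1, chr5:172771186-172771445 (reverse strand): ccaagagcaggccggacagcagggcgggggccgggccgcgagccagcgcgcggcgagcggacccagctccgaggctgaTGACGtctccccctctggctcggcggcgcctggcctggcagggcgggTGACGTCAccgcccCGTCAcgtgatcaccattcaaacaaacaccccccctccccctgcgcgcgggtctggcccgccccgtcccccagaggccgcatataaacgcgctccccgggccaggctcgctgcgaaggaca
It holds the full CRE, TGACGTCA, at -125 to -118, and the short CRE in 4 places, of which the CRE itself holds an overlapping pair. A full CRE was in 1.85% of all RefSeq windows. Of the 10 members 8 matched the promoter table, with 13 windows, and DUSP4 and DUSP5 are named only. The CRE was in 1 of these 13 windows and the short CRE in 4 (those of DUSP1, SPRY2 and SPRED2 and the second of DUSP10). The AP-1 site TGANTCA was in 1, a SPRED2 window, against 7.71% of all windows, and the ETS site CCGGAAG in 1, a SPRY1 window, against 10.3%. The CArG box (1.29% of all windows) and the kappaB site (11.3%) were in none of the 13. All motifs were searched on both strands. A match is a run of letters and not a bound site.

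DUSP2 signal was 7.47, 7.36 and 7.28 with IL-17A and 7.59, 7.56 and 7.38 in the controls. The groups overlapped, and the difference of -0.14 (95% interval -0.34 to 0.06) did not pass the test (limma adjusted p = 0.289). DUSP5 was dim, with 2.83, 2.86 and 2.66 in the IL-17A arrays and 3.15, 3.12 and 2.69 in the controls. Replicate 3 was lowest in both groups, and the difference of -0.20 (95% interval -0.55 to 0.14) had a limma adjusted p of 0.365. Control replicate 3 decided much of that value: without it the difference was -0.35 with an adjusted p of 0.0646.

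DUSP6 encodes the cytoplasmic phosphatase specific for ERK, and its transcript is a common readout of ERK activity. Its signal was 6.06, 6.06 and 6.19 with IL-17A and 5.99, 5.95 and 6.12 in the controls. The groups overlapped. The difference was 0.080 (95% interval -0.083 to 0.24, limma adjusted p = 0.443), and it was positive in every setting run (0.027 to 0.13).

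SPRY1 and SPRY2 encode Sprouty proteins, which are phosphorylated after growth factor stimulation and then hold back RAS to ERK signalling. SPRY1 signal was 4.97, 5.08 and 5.09 with IL-17A and 4.98, 4.80 and 4.78 in the controls. The groups overlapped only because control replicate 1 lay just above IL-17A replicate 1, which shared its scan with all the controls. The difference was 0.19 ± 0.070 (standard error; 95% interval 0.014 to 0.36; limma adjusted p = 0.139), and with the scan as a block it was 0.11 (adjusted p = 0.519). Of 18 fits 7 gave an unadjusted p under 0.05 and none an adjusted one.

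SPRY2 read 1.65, 1.62 and 2.14 with IL-17A and 1.89, 0.98 and 1.74 in the controls. The lowest signal well above background was 1.86 to 2.11 on these arrays, and the scanner put the probe well above background on no array, although IL-17A replicate 3 and control replicate 1 read slightly past that lowest signal. SPRED1, whose product binds neurofibromin and brings it to RAS at the membrane, read between 0.024 and 1.73 with IL-17A and between 0.090 and 0.92 in the controls. No fold is given for either gene, since both groups were below background and neither was tested.

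SPRED2, whose product acts as SPRED1 does, was well above background on all arrays. Its signal was 6.37, 6.02 and 6.03 with IL-17A and 6.36, 6.28 and 6.15 in the controls. IL-17A replicate 1 stood with the controls, with which it was scanned, and replicates 2 and 3 lay below them. The difference was -0.12 (95% interval -0.41 to 0.16, limma adjusted p = 0.494). Without IL-17A replicate 1 it was -0.24 (adjusted p = 0.125), and with the scan as a block its sign turned, to 0.11 (adjusted p = 0.521). Of the 8 tested members, SPRED2 alone changed sign with the scan as a block.

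The rest of the pathway was read through 98 genes in 6 lists, of which 96 were on the array and 90 were tested at their brightest probe. By limma 4 of these 90 (4.44%, against 7.59% of all tested probes) passed an adjusted p of 0.05: DUSP26 and MKNK2 rose, and DUSP8 and HRAS fell. An unadjusted p under 0.05 was reached by 20 (22.2%, against 31.3% of all tested probes). The median difference was 0.038 against 0.0032 over all genes, with 57 positive and 33 negative. All 4 calls were lost with the scan as a block. The groups of these 4 genes did not overlap, as for 38.9% of all tested probes. The sign of their differences therefore could not change with that block. By limma FOS, the immediate early transcription factor gene, was the only 1 of the 90 past both thresholds at its brightest probe. Those thresholds, 1.5-fold and an unadjusted p under 0.05, were passed by 2.18% of all tested probes. Of 33 dimmer probes of the listed genes that were also tested, 2 had a limma adjusted p under 0.05, against 7.59% of all tested probes. They were 1 each of CBLB and MAPK11. That of CBLB was the only 1 of the 33 past both thresholds, against 2.18% of all tested probes. CBLB and MAPK11 were named after their values were seen.

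**Figure D4:**
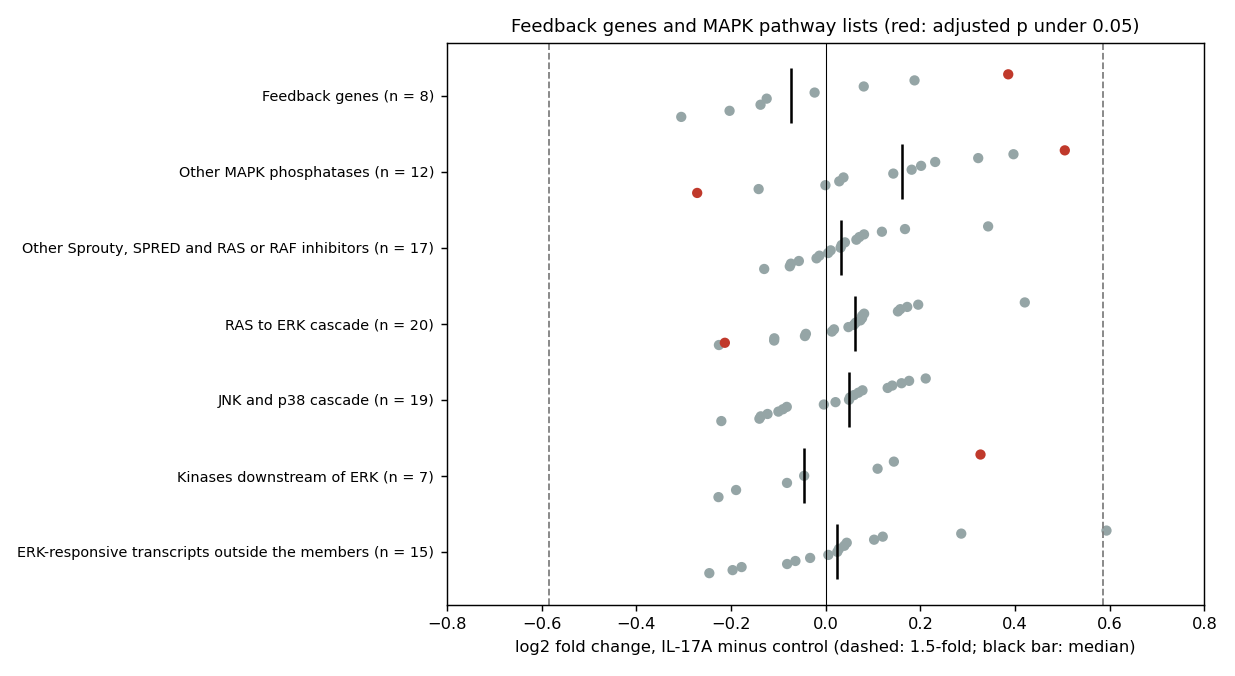
Log2 difference, IL-17A minus control, of every tested gene in the feedback group and the 6 pathway lists at its brightest probe, with 1 row per list and a point per gene and a black bar at the median; red points have a limma adjusted p under 0.05 and dashed lines mark a 1.5-fold change. The red points are DUSP10, DUSP26, MKNK2, DUSP8 and HRAS, and only FOS, at 0.59, lies past a dashed line with a limma unadjusted p under 0.05.

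All 12 of the other MAPK phosphatase genes were tested. After adjustment by limma 1 rose and 1 fell (16.7%, against 7.59% of all tested probes). An unadjusted p under 0.05 was reached by 5 (41.7%, against 31.3% of all tested probes). There were 9 positive and 3 negative differences, with a median of 0.16. DUSP26, an atypical family member, was 7.85 ± 0.08 against 7.34 ± 0.12 in the controls, a difference of 0.51 ± 0.077 (standard error; limma adjusted p = 0.0329) and 0.42 with the scan as a block. DUSP8, which like DUSP10 acts on JNK and p38, was 7.32 ± 0.06 against 7.59 ± 0.06, a difference of -0.27 (limma adjusted p = 0.0458). Its other probes were dimmer and gave -0.11 ± 0.12 and 0.0078 ± 0.041 (standard error). With the scan as a block they gave -0.27 and -0.0097, and the brightest probe -0.27. DUSP22, next by p in that list, differed by 0.23 (limma adjusted p = 0.0719), and its dimmer probe by 0.064 (adjusted p = 0.406).

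In the JNK and p38 cascade, on whose last kinases DUSP10 acts, 0 of 19 tested genes passed adjustment by limma at their brightest probe. Of all tested probes 7.59% did. An unadjusted p under 0.05 was reached by 6 (31.6%, against 31.3% of all tested probes). The unmoderated test of the study's methods gave 5 such genes, with 0 adjusted. The median difference was 0.049. MAPK11, which encodes p38 beta, differed by -0.14 at its brightest probe (limma adjusted p = 0.393) and by -0.37 at a dimmer probe (adjusted p = 0.0491, and 0.148 with the scan as a block). The lowest p values belonged to MAP2K3, a p38 activator (0.21, limma adjusted p = 0.0687), and to MAP3K4 and MAP3K1, kinases higher in those cascades (0.14 and 0.18, adjusted p = 0.0714 and 0.0966). Dimmer probes of MAP2K3 gave 0.14 and 0.019, and that of MAP3K4 gave 0.13.

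In the RAS to ERK cascade, 20 genes were tested and HRAS was the only call (5%, against 7.59% of all tested probes). HRAS was 7.71 ± 0.04 against 7.92 ± 0.02, a difference of -0.21 (limma adjusted p = 0.0418) and -0.17 with the scan as a block. MRAS differed by 0.42 (limma adjusted p = 0.103) and RRAS2 by 0.17 (adjusted p = 0.108), and the MRAS difference was 0.12 with the scan as a block. Of 17 tested Sprouty, SPRED, RAS and RAF inhibitors outside the 10 feedback genes, no brightest probe differed at either mark, with 0 adjusted and 0 unadjusted calls from limma and likewise from the unmoderated test of the study's methods. Over all tested probes limma gave 7.59% adjusted and 31.3% unadjusted calls. RGS14 (0.12) and SPRY4 (0.34) were among the genes with the lowest p there. With the scan as a block the RGS14 difference was 0.24 and the SPRY4 difference -0.0045. CBLB, which encodes a ubiquitin ligase that tags activated receptors, differed by 0.031 at its brightest probe (limma adjusted p = 0.772). A far dimmer probe, with a mean log2 signal of 2.80 against 8.35, differed by 0.80 (limma adjusted p = 0.0394, and 0.0954 with the scan as a block). The groups of that probe did not overlap, as for 38.9% of all tested probes.

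Below ERK, 1 of 7 kinase genes passed (14.3%, against 7.59% of all tested probes). It was MKNK2, whose product phosphorylates the translation factor eIF4E. MKNK2 was 14.62 ± 0.03 against 14.30 ± 0.11 in the controls, a difference of 0.33 (limma adjusted p = 0.0459). Its second probe gave 0.17 (limma adjusted p = 0.351). MKNK1 differed by -0.19 (limma adjusted p = 0.0706) and RPS6KA5 by 0.14 (adjusted p = 0.252). Of 15 tested ERK-responsive transcripts outside the feedback genes, 0 passed adjustment by limma, against 7.59% of all tested probes. An unadjusted p under 0.05 was reached by 4 (26.7%, against 31.3% of all tested probes). The unmoderated test of the study's methods gave 1 such gene, with 0 adjusted. FOS was 2.87 ± 0.23 against 2.27 ± 0.34, a difference of 0.59 (limma adjusted p = 0.117), well above background on 4 of 6 arrays and with overlapping groups. The lowest signal well above background was 1.86 to 2.11 on these arrays. With these SDs the unmoderated test of the study's methods puts the unadjusted p of FOS above 0.05. IER3 and EGR3, both early response genes, differed by -0.20 and 0.29 (limma adjusted p = 0.106 and 0.116). The early response transcripts gave no call after adjustment at 72 h, and neither did DUSP6 and SPRY1.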

How the data were processed

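SU-DHL-2 cells in 6 samples, 3 with IL-17A and 3 without, were each hybridised to an Agilent 4 x 44K array labelled with Cy3, and groups were taken from the sample labels. The deposited scanner files hold, per spot, the processed signal intensity after background subtraction, which the authors extracted with Agilent Feature Extraction 11.0.1.1 (submitters' processing notes), with detection flags. The deposited series table holds the authors' log2 values, quantile normalised per the study's methods; above its floor these correlated with the scanner values at r of 0.9996 to 0.9998, and it was used only for that check and as an alternative.

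From the scanner intensities, 61 non-uniform spot values were left out, a floor of 1 was set, and log2 values of the spots of 1 probe were averaged. The probe values were then quantile normalised, and probes well above background on at least 3 arrays were kept. Probes were named through their accessions from RefSeq (GRCh38.p14), and 25771 of 34127 matched 1 gene. Groups were compared with limma 3.58.1 in R 4.3.3 (lmFit and eBayes, two-sided, Benjamini-Hochberg over 23945 probes), tested on simulated data first. The labels do not say that the 3 samples of a group came from separate cultures, so p-values measure the spread between these samples, which may be technical, and an exact permutation test of 3 against 3 cannot go below 0.1.

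The text names all 10 members, the 3 genes with the lowest p in each pathway list, and the 3 genes most like the member with the lowest p. A gene that this rule names is not reported here. The members and lists were chosen with earlier results of these data known. Alternatives were 75th percentile scaling, no normalisation, normexp with an offset of 50, the deposited values, other filters, fold and gene summaries, a variance trend, the methods' test, scan and replicate blocks, and leaving out each array.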

Additional observations from a re-analysis of the deposited data

How the results depend on the processing

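DUSP10 was higher and DUSP4 lower with IL-17A in every setting run, and no feedback gene passed both thresholds in any. As the groups of DUSP10 and DUSP4 did not overlap, their signs could change only where the values themselves were processed differently. The blocks, the other tests and leaving out an array could not turn them. Of 144 values of the 8 tested feedback genes under the alternatives, 128 counted as unchanged. For a fit this meant the same direction and side of the threshold. For the difference within 1 scan, which has no p, it meant a move smaller than the SD of the 3 controls. The call was lost in 9, all of DUSP10, and 4 changed sign: DUSP1 to 0.0020 with no normalisation and to 0.011 without IL-17A replicate 1 (-0.061 to 0.011 with 1 array left out), SPRED2 to 0.0094 after normexp and to 0.11 with the scan as a block. The remaining 3 moved by more than that SD when IL-17A replicate 1 was set against the controls of its scan alone. DUSP1, with a control SD of only 0.017, moved to -0.092, DUSP4 to -0.45 and SPRED2, again with its sign turned, to 0.11. The scan block gives the same differences, so these settings are not separate readings. The count of feedback genes with an adjusted p under 0.05 was 1 as reported and 0 with no normalisation, normexp, the replicate block or the scan block, and 0 to 1 with 1 array left out. That of pathway genes was 4 as reported, 1 with 75th percentile scaling, 0 with no normalisation, 2 with no filter, 10 with a variance trend, 1 by the methods' test, 0 with the replicate block, 0 with the scan block, and 0 to 2 with 1 array left out. Probes past both thresholds numbered 522 as reported, 15 after normexp, 299 when detected on all 6 arrays and 978 with no filter, which tests more probes. Same-numbered samples did not deviate together (correlations of -0.087, -0.0022 and -0.047), and with the replicate number as a block the DUSP10 difference was 0.39 with a limma adjusted p of 0.124 and 527 probes passed both thresholds. The cause of the other changes was not tested. Signal over background limits SPRY2 and SPRED1, 1 probe per gene leaves no second reading of any member, and the scan holds both groups in 1 of its 2 levels only.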
